A study of Mus musculus with 9 samples.

Results

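Genes tied to the onset of gliogenesis and to radial glia were followed in neural progenitors made from mouse embryonic stem cells. They were Nfia, Nfib, Nfic, Nfix, Sox9, Sox8, Slc1a3, Fabp7, Aldh1l1 and Tnc, chosen by their exact symbols, and the 10 were found among the 38197 symbols of the count and FPKM tables. The cells were a wild type line of strain 129, E14.1, grown as a monolayer in N2B27 medium. Retinoic acid (RA) and SAG, an agonist of the Shh signal transducer Smo, were applied from 0 to 3 DDC (days in differentiation conditions). This end is that given for the samples, and the paper's methods give a later one. The treatment directs the cells towards a ventral hindbrain fate. Cells carrying Prominin-1, a membrane glycoprotein that marks neural progenitors, were collected by a magnetic sort at 4.5DDC, 5.5DDC and 6.5DDC, and 3 libraries of polyadenylated RNA were analysed per time point (9 in all). The source names of the samples give these times as 4, 5 and 6 days, and the times in DDC are used here. All 9 libraries share the strain, the genotype and the RA and SAG treatment, so the groups differ by time in the labels. No preparation or sequencing batch is labelled, so a batch that differed between time points cannot be told apart from time. The 6.5DDC samples carry numbers of a later registration than the other 6, while the library names of all 9 share a prefix and are numbered in order of time.

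Counts per gene were summed over each library to give its depth. The 4.5DDC libraries held between 11244489 and 17820600 counts (median 14390493), the 5.5DDC libraries between 11066572 and 25506192 (median 11573528) and the 6.5DDC libraries between 12851795 and 16479971 (median 15913820). At these depths 3 counts, the floor used here, correspond to between 0.118 and 0.271 CPM (counts scaled to a fixed library total), and this covers counting error only. Levels are given in FPKM, fragments scaled by both the length of the transcript and the size of the library, a unit that lets genes be compared with one another, as mean ± SD over 3 libraries. Changes are log2 fold changes of the counts, with the standard error (SE), from edgeR's quasi-likelihood test in 1 fit of the 9 libraries, and a gene was called changed at a Benjamini-Hochberg adjusted p under 0.05 over the 14742 genes tested. All 10 members passed the filter on low counts. The labels do not say that the replicates were separate cultures, so p-values measure only the spread between these libraries, which may be technical.

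The nuclear factor I (NFI) genes encode transcription factors that bind DNA as dimers, and Nfia and Nfib are known for their part in the switch of neural progenitors from making neurons to making glia. Sox9 and Sox8, factors of the SoxE group, are expressed in neural progenitors that become competent to form glia, and Sox9 is known to act upstream of and together with Nfia in the spinal cord. Radial glia, the progenitors that span the wall of the neural tube, and the astrocytes that follow them carry the glutamate transporter encoded by Slc1a3, the fatty acid binding protein encoded by Fabp7, the folate enzyme encoded by Aldh1l1 and the matrix protein encoded by Tnc.

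The libraries carry a limit that bears on every comparison. Replicates 2 and 3 of 5.5DDC were nearly alike: a chi-square for the difference between both libraries, computed gene by gene, had a median of 0.868 over 13967 genes, where counting noise alone gives 0.455. The next closest of all pairs of libraries, of different time points, had a median of 4.66, and other pairs of 1 time point lay between 5.57 and 12.3. These replicates were kept as 2 libraries, and the members over the span are also read with both summed as 1 sample, an alternative chosen after seeing the data. Replicate 1 stood apart from replicates 2 and 3 at each time point, in several members. In log2 CPM, Sox8 in replicate 1 lay at −1.63, −1.50 and −1.74 relative to the mean of replicates 2 and 3 at 4.5DDC, 5.5DDC and 6.5DDC. Sox9 lay at −1.03, −1.15 and −1.55 and Fabp7 at −1.73, −1.34 and −0.27 in the same order, while Slc1a3 lay at 0.30, 0.53 and 0.18. Tnc lay at −0.58, −1.24 and −1.43, and Aldh1l1 at 1.05, 0.57 and 0.04.

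The label of neural progenitors was set beside some genes that mark them. Among these Prom1 is not an independent check, since the cells were sorted on its protein. Sox2, a factor that maintains progenitors, had 82.1 ± 5.18, 85.3 ± 3.53 and 87.6 ± 7.37 FPKM at the 3 time points, and Nes, an intermediate filament gene of progenitors, had 157 ± 11.5, 160 ± 10 and 154 ± 14 FPKM. Prom1, which encodes the protein used for the sort, had 79.1 ± 14.3, 104 ± 3.72 and 183 ± 27.2 FPKM, and it rose over the span from 4.5DDC to 6.5DDC (log2 fold change 1.19, SE 0.182, adjusted p = 0.00363). Not every progenitor gene was steady: Sox3 fell from 8.29 ± 5.34 to 2.38 ± 1.1 FPKM (log2 fold change −1.80, SE 0.495, adjusted p = 0.0330), called in 16 of 22 alternatives with a range of 0.00174 to 0.125. Hes5 (log2 fold change −2.10, SE 0.659, adjusted p = 0.0522) and Pax6 (log2 fold change −1.85, SE 0.599, adjusted p = 0.0575) had lower means at 6.5DDC and did not pass the test. Each was called in 5 of 22 alternatives, with ranges of 0.00852 to 0.232 and of 0.00135 to 0.229. Of the members as radial glia genes, Fabp7 stood above 99.0%, 99.5% and 99.8% of the symbols with a count at the 3 time points in turn, Slc1a3 above 69.3%, 81.5% and 88.1%, Aldh1l1 above 47.5%, 51.1% and 66.1%, and Tnc above 36.9%, 36.5% and 45.5%. By contrast Gfap, the intermediate filament gene of mature astrocytes, did not exceed 0.447 FPKM in any library.

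The main question was whether these genes were higher or lower later in differentiation. From 4.5DDC to 6.5DDC, 5 of the 10 members rose: Nfia, Nfib, Slc1a3, Aldh1l1 and Tnc, by between 3.16-fold and 4.54-fold. Of all 14742 genes tested, 1358 (9.21%) were called higher and 1405 (9.53%) lower at 6.5DDC. The genes called in either direction, 2763 in all, numbered 1152 of 15140 (7.61%) without 4.5DDC replicate 2 and 1125 of 14872 (7.56%) without 6.5DDC replicate 2. In each of these fits 4 members were called, without Tnc (adjusted p = 0.0523 and 0.125, against 0.00186 to 0.125 over the alternatives). The median log2 fold change of the 10 members was 1.52, and that of all genes was 0.00398. The members were chosen with earlier results of these data known, so setting them beside all genes is a description, not a test. The log2 fold change was positive for 50.2% of all genes and for 9 members, while that of Nfic was near 0 and changed sign between alternatives. Since RNA was taken from pools of sorted cells, more cells of a type and more RNA per cell cannot be told apart.

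**Figure D1:**
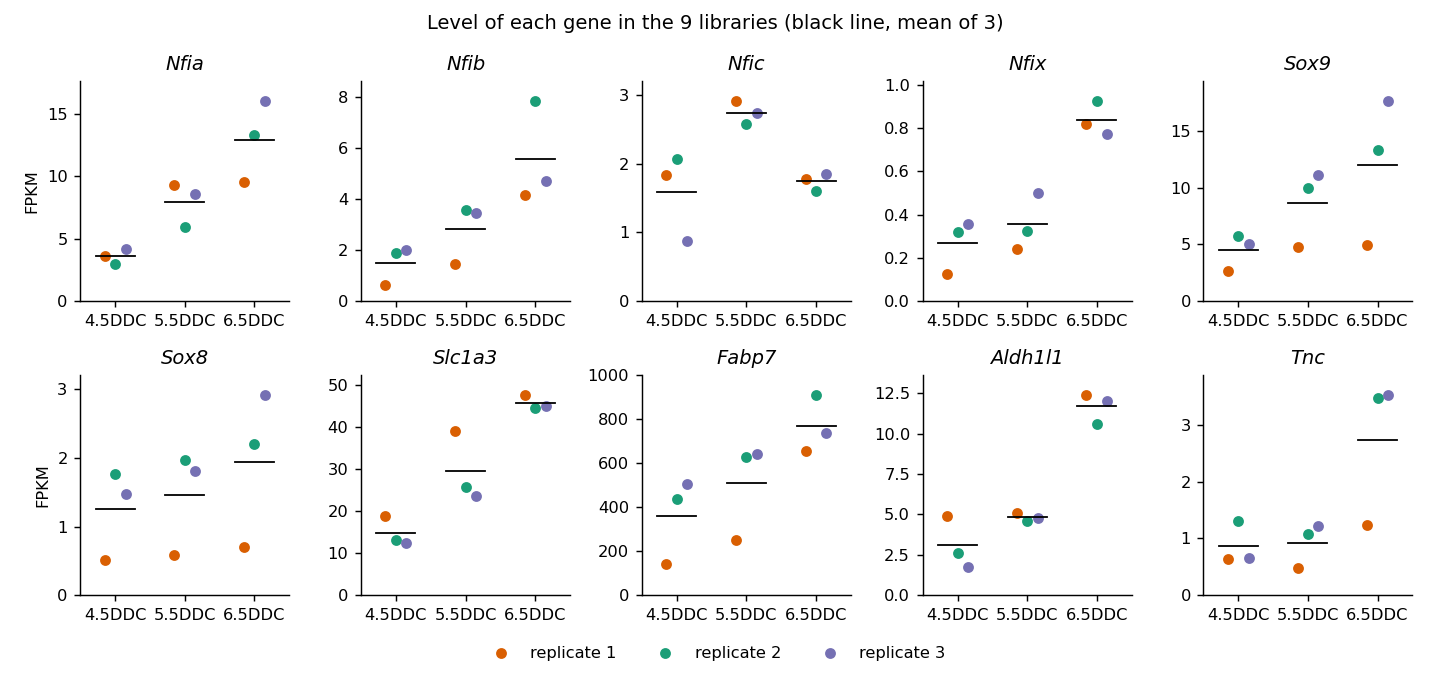
Level of each of the 10 genes in FPKM (vertical axis, from 0) in the 3 libraries of each time point (horizontal axis), coloured by replicate number, with a black line at the mean. Slc1a3 lies between 12.3 and 18.7 at 4.5DDC and between 44.4 and 47.6 at 6.5DDC, while replicate 1 of Sox8 lies lowest at every time point.

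Nfia and Nfib, the NFI members known for the gliogenic switch, both rose over the span, and Nfix and Nfic did not pass the test. Nfia lies on chromosome 4 of GRCm38 at 97772734 to 98118874. Its FPKM values were 3.65, 3.01 and 4.15 at 4.5DDC, 9.28, 5.95 and 8.55 at 5.5DDC, and 9.54, 13.3 and 16.0 at 6.5DDC. Every 5.5DDC library stood above every 4.5DDC library, and every 6.5DDC library stood above every 5.5DDC library, if by little in replicate 1. The mean went from 3.6 ± 0.569 to 12.9 ± 3.26 FPKM, and the count rose 3.90-fold (log2 fold change 1.96, SE 0.227, adjusted p = 0.00151). This change exceeded that of 97.4% of the genes tested. The call held in all 22 alternatives of scaling, filter, test and samples, with adjusted p between 4.66e-13 and 0.00908, and adjusted p was 0.00410 with 5.5DDC replicates 2 and 3 summed.

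Nfib, also on chromosome 4 but on the opposite strand, lies at 82290173 to 82705750. In FPKM it measured 0.625, 1.88 and 2.02 at 4.5DDC, 1.47, 3.6 and 3.45 at 5.5DDC, and 4.17, 7.86 and 4.73 at 6.5DDC. The 6.5DDC libraries stood above all others, whereas the 4.5DDC and 5.5DDC libraries overlapped through the low replicate 1. From a mean of 1.51 ± 0.768 to one of 5.59 ± 1.99 FPKM, Nfib rose 4.54-fold over the span (log2 fold change 2.18, SE 0.334, adjusted p = 0.00359). All 22 alternatives called it, with adjusted p between 5.54e-09 and 0.0318 (0.00771 with 5.5DDC replicates 2 and 3 summed). Replicate 1 lay at −1.02, −0.77 and −0.24 in log2 CPM relative to the mean of the other two at the successive time points, and with replicates 2 and 3 only the log2 fold change was 1.97 (adjusted p = 0.000913).

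Nfix, on chromosome 8 at 84699876 to 84800344, was the lowest of the 10 members in mean level at each time point. It had 0.127, 0.318 and 0.356 FPKM at 4.5DDC, 0.240, 0.326 and 0.502 at 5.5DDC, and 0.817, 0.924 and 0.771 at 6.5DDC. On the FPKM scale all 6.5DDC libraries lay above all others. In CPM they overlapped both other time points. There 6.5DDC replicate 1 had 1.638, under 4.5DDC replicate 2 (2.196) and 5.5DDC replicate 3 (2.779). On the count scale, where the gene had between 13 and 86 counts per library, the change did not pass the test (log2 fold change 1.36, SE 0.522, adjusted p = 0.0957). The ratio of FPKM to CPM for Nfix varied 3.70-fold between libraries, more than for any other member, so the scales weigh its libraries differently. Of 22 alternatives 4 called it, both limma fits of log2 FPKM (adjusted p = 0.0196 and 0.0305) the fit without 6.5DDC replicate 1 (adjusted p = 0.0395) and the block for replicate 1 (adjusted p = 0.0381), with a range of 0.0196 to 0.271.

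Nfic, on chromosome 10 at 81396186 to 81455635, had its highest mean at 5.5DDC. It had 1.83, 2.07 and 0.871 FPKM at 4.5DDC, 2.91, 2.58 and 2.74 at 5.5DDC, and 1.78, 1.61 and 1.85 at 6.5DDC. In FPKM the 5.5DDC libraries stood above all others, but in CPM they overlapped both other time points (15.07, 13.44 and 12.1 at 5.5DDC, up to 12.67 at 4.5DDC and up to 13.61 at 6.5DDC). Neither interval passed the test (adjusted p = 0.562 and 0.475), with ranges over the alternatives of 0.259 to 0.890 and of 0.244 to 0.786. Over the span its log2 fold change was −0.00 (−0.003275, SE 0.308, adjusted p = 0.995), with a 95% confidence interval of −0.692 to 0.685. Over the 22 alternatives the log2 fold change lay between −0.27 and 0.32, on both sides of 0, and 0 of them called it.

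The composition of NFI transcripts was read as the share of each gene in the summed FPKM of the 4 genes. That sum was 6.97 ± 0.634 FPKM at 4.5DDC, 13.9 ± 1.4 at 5.5DDC and 21.1 ± 4.17 at 6.5DDC. Nfia held the largest share in every library, 52.0 ± 9.28% at 4.5DDC and 61.0 ± 6.61% at 6.5DDC, and these overlapped (two-sided exact permutation p = 0.5). Nfic held 29.4%, 28.5% and 11.8% at 4.5DDC, 20.9%, 20.7% and 18.0% at 5.5DDC, and 10.9%, 6.81% and 7.93% at 6.5DDC. Each 6.5DDC library thus lay under each earlier one, although 4.5DDC replicate 3 came close with 11.8%. The difference from 4.5DDC to 6.5DDC was −14.7 percentage points (two-sided exact permutation p = 0.1, the smallest that 3 libraries against 3 can give), and between −20.4 and −11.6 with each library left out in turn. The ratio of FPKM to CPM varied between libraries 1.37-fold for Nfia, 1.84-fold for Nfib, 1.72-fold for Nfic and 3.70-fold for Nfix, so shares were also taken in CPM. From 4.5DDC to 6.5DDC the mean CPM share went from 52.2% to 60.3% for Nfia, 22.9% to 31.3% for Nfib, 22% to 6.31% for Nfic and 2.92% to 2.03% for Nfix, so only Nfix had another direction in FPKM. Nfib held 21 ± 9.59% and 26.3 ± 6.53% (exact permutation p = 0.6), and Nfix held 3.74 ± 1.49% and 4.07 ± 0.870% (exact permutation p = 0.8). With each library left out in turn, the FPKM share differed by between 3.72 and 12.3 percentage points for Nfia. It differed by between −0.226 and 8.44 for Nfib and between −0.519 and 0.867 for Nfix, so the direction for Nfib and Nfix was not stable.

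**Figure D2:**
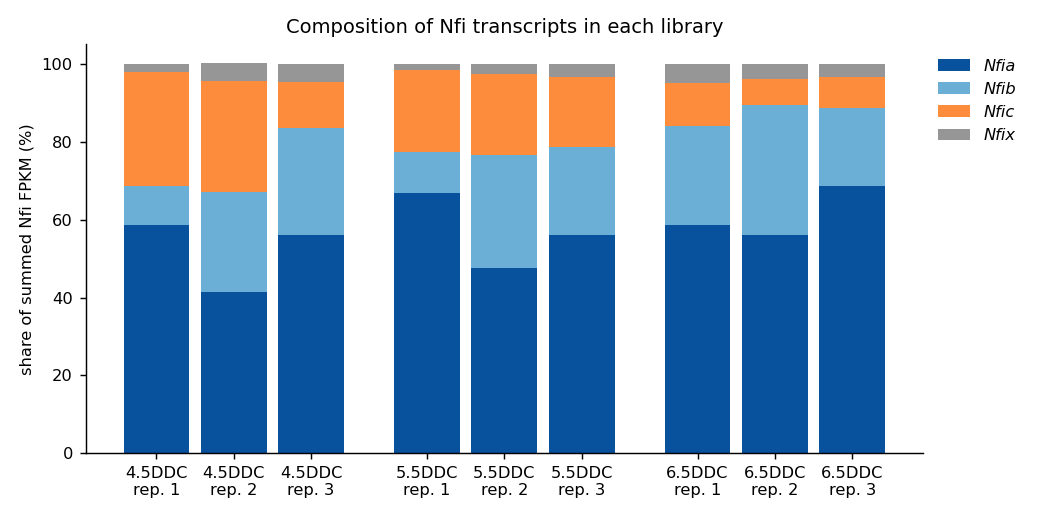
Share of Nfia, Nfib, Nfic and Nfix in their summed FPKM (vertical axis, percent) in each of the 9 libraries (horizontal axis, by time point and replicate). Nfia takes the largest part of each bar, and Nfic shrinks from a mean of 23.2% at 4.5DDC to 8.55% at 6.5DDC.

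Sox9 and Sox8, the SoxE factors, both had higher means at 6.5DDC but did not pass the test, and both were lower in replicate 1 throughout. Sox9 lies on chromosome 11 at 112782224 to 112787760. It had 2.69, 5.73 and 5.07 FPKM at 4.5DDC, 4.74, 10 and 11.1 at 5.5DDC, and 4.99, 13.3 and 17.6 at 6.5DDC. Replicate 1 was the lowest library at each time point, and its 6.5DDC value lay within the range of the 4.5DDC libraries. The span gave a log2 fold change of 1.39 (SE 0.469, adjusted p = 0.0654). With replicates 2 and 3 only, adjusted p was 0.000996, and 7 of 22 alternatives called Sox9, with a range of 0.000422 to 0.172. Leaving out replicate 1 of 5.5DDC gave 0.0412, leaving out replicate 1 of 6.5DDC gave 0.0173, and a block for replicate 1 gave 0.000422. DESeq2 (0.0114) and the fit with no filter on low counts (0.0379) also called Sox9, with replicate 1 kept.

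Sox8 lies on chromosome 17 at 25565892 to 25570686, and 329 of its 3118 exonic bases overlap a gene on the opposite strand. Its levels were 0.510, 1.77 and 1.47 FPKM at 4.5DDC, 0.590, 1.97 and 1.81 at 5.5DDC, and 0.702, 2.20 and 2.92 at 6.5DDC. The spread between replicate 1 and the others at 1 time point exceeded the differences between time points. Sox8 had a log2 fold change of 0.62 over the span (SE 0.607, adjusted p = 0.497), and 0 of 22 alternatives called it (adjusted p between 0.0636 and 0.825).

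Among the radial glia and astrocyte effector genes, Slc1a3, Aldh1l1 and Tnc rose over the span, and Fabp7, the most abundant member, did not pass the test. Slc1a3 encodes the glutamate transporter GLAST and lies on chromosome 15 at 8634124 to 8710764. Its FPKM values were 18.7, 13.1 and 12.3 at 4.5DDC, 39.0, 25.8 and 23.5 at 5.5DDC, and 47.6, 44.4 and 44.9 at 6.5DDC. No library of a later time point fell within the range of an earlier one, and replicate 1 was the highest each time. The mean went from 14.7 ± 3.49 to 45.6 ± 1.71 FPKM, and Slc1a3 rose 3.33-fold (log2 fold change 1.74, SE 0.180, adjusted p = 0.00102). All 22 alternatives called it, with adjusted p between 3.62e-15 and 0.00748 (0.00288 with 5.5DDC replicates 2 and 3 summed).

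Aldh1l1 encodes a dehydrogenase of folate metabolism used as a marker of astrocytes, and it lies on chromosome 6 at 90486427 to 90600203. It had 4.90, 2.63 and 1.76 FPKM at 4.5DDC, 5.09, 4.59 and 4.76 at 5.5DDC, and 12.4, 10.6 and 12.0 at 6.5DDC. In FPKM the 6.5DDC libraries stood well above the rest, and 4.5DDC replicate 1 lay among the 5.5DDC libraries. In CPM the gap was smaller, with 20.49 in the lowest 6.5DDC library and 17.61 in the highest 5.5DDC library, and 4.5DDC replicate 1 (9.222) lay under every 5.5DDC library (11.48 or more). The ratio of FPKM to CPM varied 1.89-fold between libraries for this gene. From 3.10 ± 1.62 to 11.7 ± 0.910 FPKM, Aldh1l1 rose 4.18-fold (log2 fold change 2.06, SE 0.335, adjusted p = 0.00460). It was called in all 22 alternatives, with adjusted p between 1.04e-07 and 0.0247 (0.00952 with 5.5DDC replicates 2 and 3 summed). Of its 4516 exonic bases, 499 overlap a gene on the opposite strand and 105 a gene on its own strand, so part of its count may belong to these.

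Tnc encodes tenascin-C, a glycoprotein of the matrix around progenitors, and lies on chromosome 4 at 63959785 to 64047015. Its levels were 0.636, 1.31 and 0.661 FPKM at 4.5DDC, 0.476, 1.08 and 1.22 at 5.5DDC, and 1.23, 3.47 and 3.53 at 6.5DDC. Replicates 2 and 3 of 6.5DDC stood far above the rest, whereas replicate 1 of 6.5DDC lay under the highest 4.5DDC library. Tnc rose 3.16-fold (log2 fold change 1.66, SE 0.473, adjusted p = 0.0376), but this call was the weakest of the 5. It held in 12 of 22 alternatives, with adjusted p between 0.00186 and 0.125. Leaving out 4.5DDC replicate 1, 2 or 3 gave adjusted p of 0.0994, 0.0523 and 0.101, leaving out 5.5DDC replicate 2 gave 0.0555, and leaving out 6.5DDC replicate 2 or 3 gave 0.125 and 0.0894. It was also lost with 5.5DDC replicates 2 and 3 summed (0.0535), with limma voom on library totals (0.0565) and with limma on log2 FPKM at a pseudocount of 1 (0.0575) or 0.1 (0.0716).

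Fabp7 encodes the brain fatty acid binding protein of radial glia and lies on chromosome 10 at 57784881 to 57788450. It had 142, 439 and 504 FPKM at 4.5DDC, 252, 630 and 643 at 5.5DDC, and 655, 911 and 737 at 6.5DDC. All 6.5DDC libraries stood above all earlier ones, the lowest of them by little, and replicate 1 was the lowest at each time point. The mean went from 362 ± 193 to 768 ± 131 FPKM, with a log2 fold change of 1.08 (SE 0.462, adjusted p = 0.126) that missed the threshold. DESeq2 called Fabp7 at an adjusted p of 0.0493 the fit of replicates 2 and 3 only at 0.0143 and the block for replicate 1 at 0.00574, 4 of 22 alternatives in all, with a range of 0.00574 to 0.296.

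Counted by FPKM, 6 of the 10 members had every 6.5DDC library above every 4.5DDC library: Nfia, Nfib, Nfix, Slc1a3, Fabp7 and Aldh1l1. Over the 14742 genes tested this held for 2638 (17.9%). In CPM the Nfix libraries of 4.5DDC and 6.5DDC overlapped. With 5.5DDC replicates 2 and 3 summed, the calls over the span were those of Nfia, Nfib, Slc1a3 and Aldh1l1, 4 of 10, where 988 of 15312 genes tested (6.45%) were called higher. With replicates 2 and 3 only, 7 of 10 members were called, where 2415 of 14638 genes (16.5%) were called higher. That fit added Sox9 and Fabp7 to the 5, and it rests in part on the nearly alike pair at 5.5DDC. With the replicate block 7 of 10 members were also called, where 3418 of 14742 genes (23.2%) were called and 1913 (13%) were called higher, and the span was not taken as paired.

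**Figure D3:**
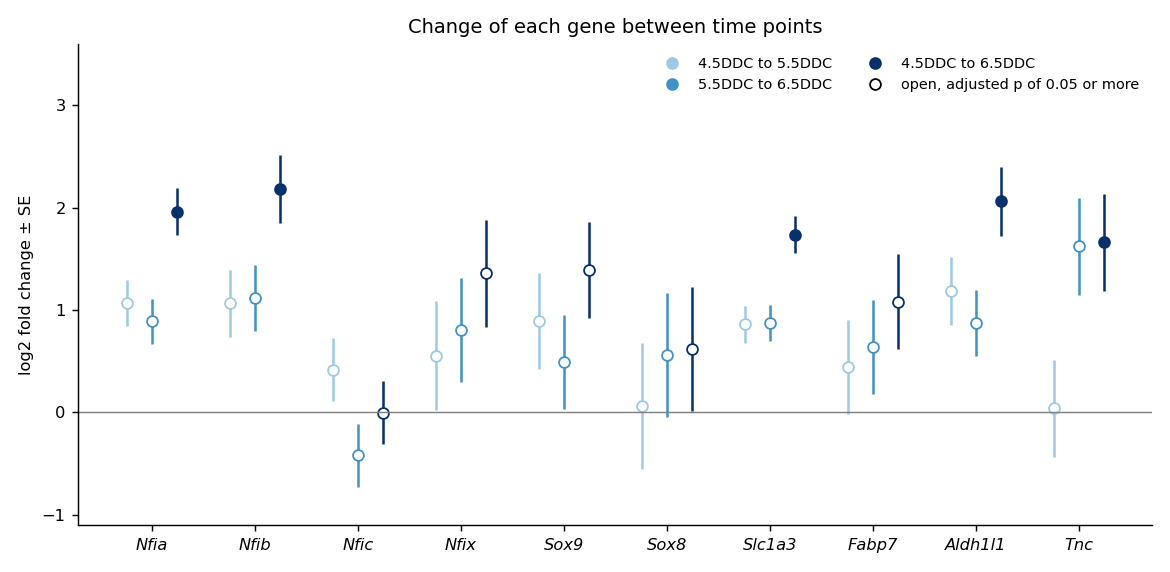
Log2 fold change of each gene with its SE (vertical axis) for both intervals and the span, filled where the adjusted p is under 0.05. The filled points are the spans of Nfia, Nfib, Slc1a3, Aldh1l1 and Tnc, from 1.66 to 2.18.

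The promoters of the 4 radial glia and astrocyte genes are shown, since 3 of these genes rose over the span and each holds a match to a searched motif. The set of promoters used here, drawn from RefSeq (GRCm38.p6), gave 250 bases before the start for 8 of the 10 members, cut short where an exon begins. Nfib and Sox9 had no entry in this set, which does not mean that RefSeq lacks them. These 8 had 11 windows, of which Nfix had 3 and Tnc 2. Motifs were searched on both strands: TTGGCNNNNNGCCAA and TTGGCA for NFI factors, AACAAT for SOX factors, TTCNNNGAA for STAT factors and TGGGAA for RBPJ, the factor through which Notch signals. Over 32851 promoters of 250 bases these were present in 0.0365%, 12.3%, 9.42%, 7.02% and 21.6%. The STAT letters were found in promoters of Nfic, Nfix and Slc1a3 (3 of 11 windows), the RBPJ letters in Aldh1l1, Fabp7 and Tnc (3 of 11), the single NFI site in Sox8 (1 of 11), and the NFI palindrome and the SOX letters in 0 of 11. Some of these windows are shorter than the 250 bases of the background. The RBPJ letters read TTCCCA on the strand printed. Capitals mark the STAT match in Slc1a3 (chr15:8710808-8711057, minus strand) and the RBPJ match in Aldh1l1 (chr6:90550543-90550788, plus strand), Fabp7 (chr10:57784673-57784880, plus strand) and Tnc (chr4:64047016-64047265, minus strand). The windows of Aldh1l1, Nfic and Nfix lie inside these genes as placed above, before RefSeq starts within them, and that of Nfia lies 190791 bases before the start given above. The windows of Tnc overlap. A match describes letters, not a bound site.
Slc1a3: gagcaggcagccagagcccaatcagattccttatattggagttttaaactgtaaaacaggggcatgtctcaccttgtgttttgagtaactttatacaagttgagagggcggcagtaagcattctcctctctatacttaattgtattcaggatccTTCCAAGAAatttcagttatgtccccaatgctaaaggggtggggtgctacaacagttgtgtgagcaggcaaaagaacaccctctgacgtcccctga
Aldh1l1: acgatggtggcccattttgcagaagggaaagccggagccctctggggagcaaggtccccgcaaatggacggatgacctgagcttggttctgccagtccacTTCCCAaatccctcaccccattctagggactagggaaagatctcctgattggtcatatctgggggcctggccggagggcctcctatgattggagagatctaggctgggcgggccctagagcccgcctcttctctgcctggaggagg
Fabp7: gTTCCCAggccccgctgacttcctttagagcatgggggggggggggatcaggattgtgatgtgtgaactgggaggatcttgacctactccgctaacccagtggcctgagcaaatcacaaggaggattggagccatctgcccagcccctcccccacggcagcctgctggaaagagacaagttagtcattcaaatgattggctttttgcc
Tnc: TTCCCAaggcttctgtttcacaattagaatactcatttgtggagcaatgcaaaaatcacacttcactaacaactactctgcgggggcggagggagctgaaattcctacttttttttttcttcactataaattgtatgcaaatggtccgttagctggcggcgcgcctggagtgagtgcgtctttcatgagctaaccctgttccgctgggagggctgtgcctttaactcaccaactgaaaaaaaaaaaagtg

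The intervals of 1 day asked when the members differed, and edgeR without a block called none in either. From 4.5DDC to 5.5DDC, 0 of 10 members were called by edgeR, 4 had an unadjusted p under 0.05 and DESeq2 called 4. Across all genes edgeR called 11 (0.0746%) over that interval, 2275 (15.4%) had an unadjusted p under 0.05 and DESeq2 called 495 (3.36%). From 5.5DDC to 6.5DDC, 0 of 10 members were called by edgeR, 5 had an unadjusted p under 0.05 and DESeq2 called 4. Across all genes these numbered 33 (0.224%), 2733 (18.5%) and 671 (4.55%). The replicate number was also fitted as a block, since deviations of libraries of 1 number correlated at over 0.1 between adjacent time points, although only replicate 1 was distinct by number. With the block, 2 members were called over the first interval, where 212 genes (1.44%) were called, and 3 over the second, where 195 genes (1.32%) were called. With 5.5DDC replicates 2 and 3 summed, 0 members were called in either interval, where 1 and 0 of all genes were called.

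Slc1a3 had a log2 fold change of 0.86 over the first interval (SE 0.177, adjusted p = 0.136, 0.0283 with the block) and of 0.88 over the second (SE 0.176, adjusted p = 0.0829, 0.0264 with the block). Over the 22 alternatives its adjusted p lay between 0.00362 and 0.422 in the first and between 0.00148 and 0.316 in the second. With the pair summed it was 0.328 and 0.306. The difference between the intervals was 0.02 (95% confidence interval −0.662 to 0.696), and it took both signs over the alternatives. Sox9 had a log2 fold change of 0.89 over the first interval without a block (SE 0.466, adjusted p = 0.392). With the block it was called (log2 fold change 0.87, SE 0.177, adjusted p = 0.0489). Its adjusted p lay between 0.0210 and 0.658 over the alternatives (0.632 with the pair summed). Nfib had a log2 fold change of 1.07 over the first interval (SE 0.327, adjusted p = 0.203, 0.0604 with the block, 0.0263 to 0.449 over the alternatives, of which 2 called it). Over the second interval the log2 fold change of Nfib was 1.11 without a block (SE 0.321, adjusted p = 0.155). With the block Nfib was called there (log2 fold change 1.16, SE 0.231, adjusted p = 0.0484). Its adjusted p in that interval lay between 0.0182 and 0.490 over the alternatives (0.334 with the pair summed). Nfia had a log2 fold change of 1.07 over the first interval (SE 0.223, adjusted p = 0.136, 0.0526 with the block) and of 0.89 over the second (SE 0.220, adjusted p = 0.114, 0.0832 with the block). DESeq2 (0.00294 and 0.0116) and the block for replicate 1 (0.0291 and 0.0490) called Nfia in both, and replicates 2 and 3 only (0.0393) called it in the second, with ranges of 0.00294 to 0.422 and of 0.0116 to 0.451.

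For Tnc the log2 fold change was 0.04 over the first interval (SE 0.472, adjusted p = 0.980, 0.979 with the block) and 1.62 over the second (SE 0.473, adjusted p = 0.158, 0.0326 with the block). In the second interval the range over the alternatives was 0.0126 to 0.5, with 0.334 for the pair summed. The difference between the intervals was 1.58 (SE 0.836, 95% confidence interval −0.284 to 3.45, adjusted p = 0.760), so unequal change over the intervals was not shown. Aldh1l1 had 1.19 over the first interval (SE 0.330, adjusted p = 0.179, 0.0673 with the block) and 0.88 over the second (SE 0.321, adjusted p = 0.214, 0.113 with the block). It was called in the first by DESeq2 (0.0256), the block for replicate 1 (0.0321) and replicates 2 and 3 only (0.0350), and in the second by the last alone (0.0470), with ranges of 0.0256 to 0.464 and of 0.0470 to 0.490. Of the 10 members, 0 passed edgeR's test of the difference between the intervals, 0 had an unadjusted p under 0.05 and 0 were called by DESeq2. Of all genes, edgeR called 0 (0%), DESeq2 called 0 (0%) and 701 (4.76%) had an unadjusted p under 0.05. The intervals share the 5.5DDC libraries, so their values are not independent.

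In order of mean level, Fabp7 came first and Slc1a3 the second at each time point, and no library of Slc1a3 reached one of Fabp7. At 4.5DDC the order went on with Sox9, Nfia, Aldh1l1, Nfic, Nfib, Sox8 and Tnc, each overlapping the next, and Nfix lay under them all. At 5.5DDC Sox9 overlapped Nfia and, through replicate 1 (4.74 FPKM), Aldh1l1, which lay under Nfia and above Nfib and Nfic, and Sox8, Tnc and Nfix followed, each overlapping the next. At 6.5DDC it went on with Nfia (12.9 FPKM), Sox9 (12.0) and Aldh1l1 (11.7), whose libraries overlapped, then Nfib (5.59), whose range held only replicate 1 of Sox9 among these. Tnc (2.74 FPKM), Sox8 (1.94) and Nfic (1.75) overlapped in turn, and Nfix (0.838) came last, although replicate 1 of Sox8 (0.702) lay under it. Nfib stood at the seventh place at 4.5DDC and the sixth at 6.5DDC, while Nfic moved from the sixth to the ninth.

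The members also varied in how they followed one another over the 9 libraries. The pattern of a gene was taken as its log2 CPM in each library minus its mean, and likeness as the root mean square difference between patterns, where smaller is more alike. Slc1a3 was closest among the members to Nfia (0.282) and to Aldh1l1 (0.333), and Sox9 was closest to Sox8 (0.405). Nfib lay at 0.442 from Nfia, and Nfic lay at 0.738 or more from each of the others. Among all genes tested, those closest to Nfia were St3gal1 (0.204), Camk2n1 (0.208) and Cd44 (0.209), and those closest to Nfib were Nlgn1 (0.194), Zcchc12 (0.195) and Ptpro (0.205). For Slc1a3 they were Sorcs3 (0.121), Tmeff2 (0.135) and Enpp5 (0.144), for Aldh1l1 Kif9 (0.195), Fhad1 (0.211) and Lrrc48 (0.233), and for Tnc Cnrip1 (0.240), Rcan2 (0.256) and Syt16 (0.274).

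Other genes of the same processes were read from 6 lists beside the members, over the span. These lists were also chosen with earlier results of these data known. Together 44 of their 51 genes were tested, 11 rose and 2 fell, and 31 did not pass the test, with a median log2 fold change of 0.138. With the replicate block 12 were called higher and 4 lower. For comparison, 9.21% of all 14742 genes tested were called higher and 9.53% lower without the block. With the block, 13% of them were called higher and 23.2% in either direction. Astrocyte genes gave 4 higher and 1 lower of 11 tested of 15, with a median of 0.325. Sparcl1, a secreted protein of astrocytes and radial glia, rose from 16.3 ± 4.5 to 48.5 ± 3.24 FPKM (log2 fold change 1.56, SE 0.192, adjusted p = 0.00154). Gja1, which encodes the gap junction protein connexin 43, fell by 1.89 on the log2 scale (SE 0.267, adjusted p = 0.00259), from 31.5 ± 6.95 to 8.53 ± 2.90 FPKM. Both calls held in all 22 alternatives. Aqp4, Glul and Slc1a2 were the other genes called, in 11, 20 and 9 of 22 alternatives. Gfap, S100b, Gjb6 and Hepacam were not tested, and they stayed under 1 FPKM in every library, with a highest value of 0.447.

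Other radial glia genes gave 4 higher and 0 lower of 12 tested, with a median of 0.112. Ptprz1, a receptor phosphatase of radial glia, had 2.96, 4.54 and 8.33 FPKM at 4.5DDC, 12.0, 16.4 and 17.1 at 5.5DDC, and 26, 33.9 and 35.5 at 6.5DDC. It rose by 2.57 on the log2 scale (SE 0.353, adjusted p = 0.00231), and it was called in all 22 alternatives, as was Prom1. Ttyh1 and Cdh2, the other genes called, were called in 20 and 13 of 22. Vim, the intermediate filament gene vimentin, was the most abundant of this list and did not pass the test (log2 fold change 0.23, SE 0.162, adjusted p = 0.343).

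Among gliogenic transcription and chromatin factors, 2 were higher and 1 lower of 7 tested, with a median of −0.06. Hmga2, a chromatin protein of young progenitors, fell by 2.12 on the log2 scale (SE 0.255, adjusted p = 0.00151) and in all 22 alternatives. It had 43.3, 64.4 and 57.9 FPKM at 4.5DDC, 22.7, 25.7 and 26.4 at 5.5DDC, and 8.17, 17.3 and 13.0 at 6.5DDC, with no overlap between time points. Zbtb20 and Rfx4 were called higher, in 17 and 13 of 22 alternatives. The gliogenic cytokine pathway gave 1 higher and 0 lower of 7 tested of 8, with a median of 0.159. The gene called was Stat3, which carries the signal of these cytokines to the nucleus (log2 fold change 1.27, SE 0.340, adjusted p = 0.0297), called in 19 of 22 alternatives. Its call ended without 4.5DDC replicate 2, 4.5DDC replicate 3 or 6.5DDC replicate 1 (adjusted p over the alternatives from 0.000251 to 0.109).

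Genes described as targets of Nfia and Sox9, Apcdd1, Mmd2 and Zcchc24, gave 0 of 3 called by edgeR, 0 by DESeq2 and 0 with an unadjusted p under 0.05, with a median of 0.104. Apcdd1 had a log2 fold change of 0.14 (SE 0.211, adjusted p = 0.673), Mmd2 one of −0.68 (SE 0.537, adjusted p = 0.395) and Zcchc24 one of 0.10 (SE 0.224, adjusted p = 0.774). In none of the 22 alternatives was any of these called. Over the span, 5218 of all 14742 genes tested had an unadjusted p under 0.05. Oligodendrocyte precursor genes gave 0 of 4 tested of 6 called by edgeR, 2 by DESeq2 and 3 with an unadjusted p under 0.05, with a median of −1.22. The replicate block called 3 of these 4, Olig1 and Olig2 lower and Pdgfra higher. Olig2 had 0.564, 9.97 and 4.45 FPKM at 4.5DDC and 0.0533, 0.528 and 1.44 at 6.5DDC, and its log2 fold change was −2.89 (SE 1.19, adjusted p = 0.115). Pdgfra had a log2 fold change of 1.26 (SE 0.413, adjusted p = 0.0588), so the genes of this list did not share a sign.

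**Figure D4:**
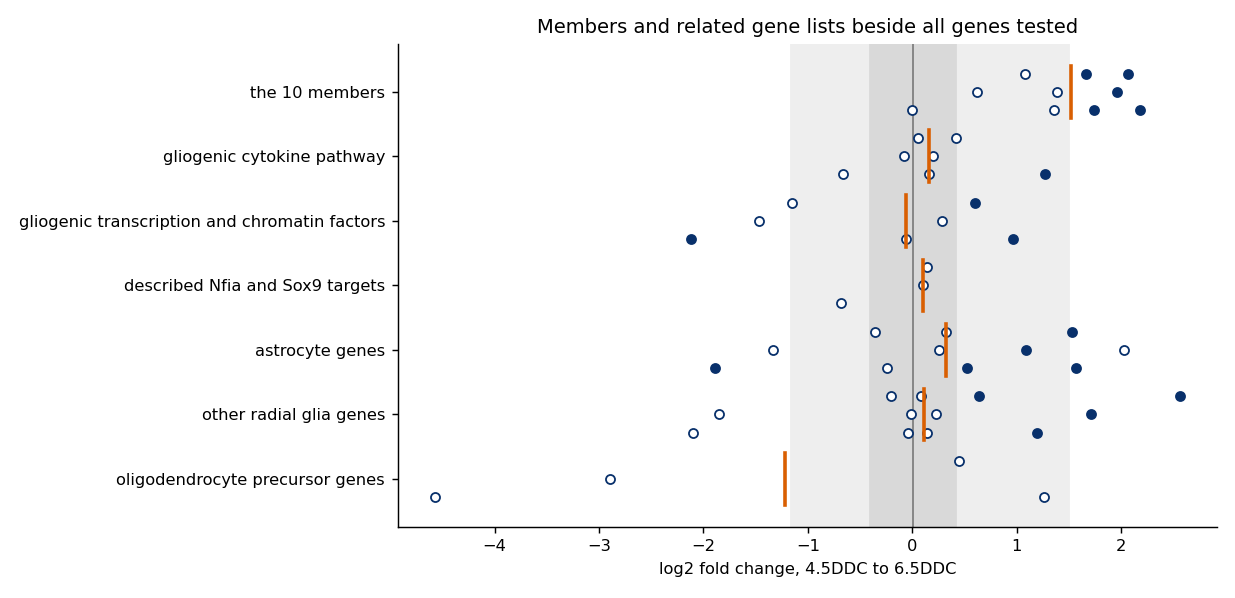
Log2 fold change from 4.5DDC to 6.5DDC (horizontal axis) of the 10 members and of 6 related lists, with filled points for an adjusted p under 0.05, orange bars at list medians and grey bands over the middle 50% and 90% of all genes tested. The median of the members is 1.52, and the medians of the lists lie between −1.22 and 0.325.

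Markers of other cells were summed in FPKM beside these changes. The neuron list, with 8 of 9 genes in the tables, summed to 155, 302 and 242 at 4.5DDC, 156, 407 and 427 at 5.5DDC, and 267, 601 and 651 at 6.5DDC, with Stmn2 its most abundant gene. Of 8 tested, 2 rose (Map2 and Syt1), and 4 with the replicate block. The sum was lowest in replicate 1 at each time point, as were the FPKM of Nfib, Sox9, Sox8, Fabp7 and Tnc. By contrast Slc1a3 and Aldh1l1 were highest in replicate 1 at each time point. The mesenchyme list summed to 12.3, 24 and 32.4 at 4.5DDC, 19.9, 49.4 and 48.9 at 5.5DDC, and 32.4, 103 and 120 at 6.5DDC, with Dcn the most abundant and 1 of 8 higher (5 with the replicate block). The floor plate list summed to 867, 567 and 567 at 4.5DDC, 1580, 1090 and 1100 at 5.5DDC, and 1240, 1250 and 1380 at 6.5DDC, with Ntn1 the most abundant and 4 of 5 higher. The dividing cell list summed to 823, 976 and 1030 at 4.5DDC, 580, 741 and 744 at 5.5DDC, and 552, 441 and 278 at 6.5DDC, with Top2a the most abundant and 6 of 6 lower. Their part in the rise of Nfia, Nfib, Slc1a3, Aldh1l1 and Tnc was not tested.

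The remaining marker lists were read the same way. Neural progenitor markers gave 1 higher (Prom1) and 1 lower (Sox3) of 7, with sums between 346 and 476 FPKM and Nes the most abundant. Endoderm markers gave 0 of 4 tested called by edgeR or DESeq2 and 0 with an unadjusted p under 0.05, with a median log2 fold change of 1.42. With the replicate block 3 of 4 were called higher: Sox17, Gata4 and Gata6. Foxa1, a gene that the floor plate also expresses, was the most abundant at a mean of 33.5 FPKM, and the list summed to 44.4, 20.7 and 22.1 at 4.5DDC, 42.7, 32.8 and 34.7 at 5.5DDC, and 61, 34.4 and 33.5 at 6.5DDC. Its part in the result was not tested. Endothelium markers gave 1 of 4 tested higher (Kdr) and a median of 0.876, with sums between 1.21 and 8.69 FPKM, Cdh5 the most abundant and Cldn5 at 0 in every library. Neural crest markers gave 0 of 3 tested called by edgeR or DESeq2 and 0 with an unadjusted p under 0.05, with Ngfr the most abundant and called lower with the replicate block (1 of 3), while Sox10, Foxd3, Tfap2a and Tfap2b stayed under 1 FPKM with a highest value of 0.303. All 4 microglia markers stayed under 1 FPKM, Csf1r being the most abundant (1 tested, 0 called by edgeR or DESeq2, 1 with an unadjusted p under 0.05), and so did all 4 pluripotent cell markers, Zfp42 being the most abundant (1 tested, 0 called by edgeR or DESeq2, 0 with an unadjusted p under 0.05).

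**Figure D5:**
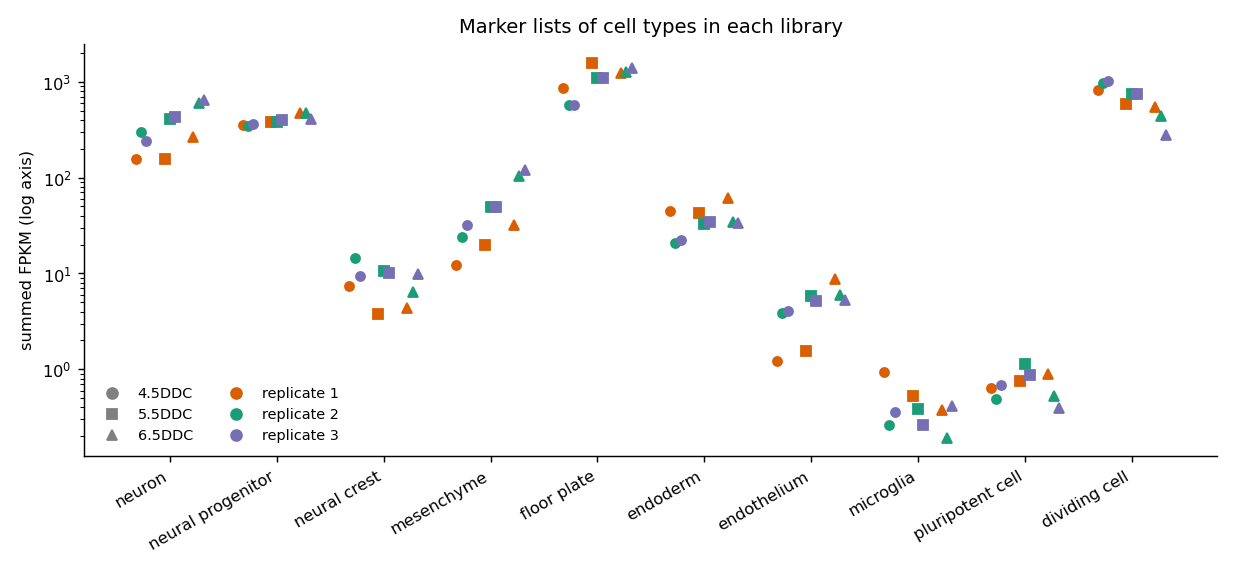
Summed FPKM of each marker list (vertical axis, log scale) in the 9 libraries, with the shape of a point giving the time point and its colour the replicate. The dividing cell sum falls from between 823 and 1030 at 4.5DDC to between 278 and 552 at 6.5DDC, and the microglia sum stays under 1 throughout.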

How the data were processed

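RNA of the 9 libraries had been mapped and counted by the authors, whose notes name bcl2fastq 1.8.3, TopHat2 2.0.4, HTSeq 0.6.1 and Cufflinks 2.1.1 on GRCm38. The deposited count table was read as holding estimated counts (also called expected counts), since 98 of 38197 symbols had values that were not whole although whole counts had been assumed when the tests were chosen, and values were rounded. The authors name htseq-count as the counter, and the values of all 10 members were whole. The deposited FPKM values of the authors were used as levels. The deposited voom values were not used here. Sources used here do not give the strandedness of counting, so exons that overlap on opposite strands are uncertain (Nfia 4 bases, Nfic 72, Nfix 141, Tnc 176).

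Genes were filtered with filterByExpr (14742 kept) and scaled by TMM (factors 0.951 to 1.03), then tested with edgeR's quasi-likelihood test and Benjamini-Hochberg adjustment over all genes at 0.05 (R 4.3.3, edgeR 4.0.16, limma 3.58.1, DESeq2 1.42.0; Python 3.11.15, pandas 2.3.3, numpy 2.4.6, scipy 1.17.1, matplotlib 3.10.9). Levels and shares were compared by two-sided exact permutation tests, which cannot go below 0.1 with 3 libraries against 3. The procedure was also run on simulated counts with known changes, drawn with the same dispersion for all genes. The simulated libraries held no shift of replicate 1 and no nearly alike pair. They therefore do not show how the procedure handles those features. Positions come from GENCODE M21.

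Named genes are the 10 members, those of 6 related lists and 10 marker lists, and the 3 genes closest in pattern to each called member. A result for 1 gene of the lists is not reported here, and the list counts leave it out. Members and lists were chosen with earlier results of these data known. The 22 alternatives were other scalings, filters and tests (DESeq2, limma voom, limma on log2 FPKM), blocks for the replicate number or for replicate 1, subsets of libraries, each library left out in turn, and 5.5DDC replicates 2 and 3 summed, the last chosen after seeing the data. How far each gene lay from its mean at a time point was correlated over genes, which are not independent replicates, between libraries of 1 number, with values of 0.743, 0.386 and 0.452 over the first interval and of 0.454, 0.367 and 0.197 over the second, so numbers were taken to pair adjacent time points. Over the span they were 0.383, −0.0396 and −0.215, so the span was not taken as paired, although replicate 1 (0.383) was apart there too (−0.371 to −0.123 against other numbers). A block for replicate 1 is among the alternatives. Libraries of different numbers within replicates 2 and 3 gave between 0.225 and 0.487, which leaves replicates 2 and 3 indistinguishable by number and only replicate 1 distinct.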

Additional observations from a re-analysis of the deposited data

How the results depend on the processing

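Over the span from 4.5DDC to 6.5DDC, Nfia, Nfib, Slc1a3 and Aldh1l1 were called higher in all 22 alternatives, Tnc in 12, Sox9 in 7, Nfix and Fabp7 in 4, and Sox8 and Nfic in 0. The intervals of 1 day, where 11 and 33 genes were called, gave the most calls with DESeq2, with replicates 2 and 3 only and with a block for replicate 1. Each changed sign named here belongs to an uncalled value. There were 3 libraries per time point and between 13 and 86 counts of Nfix per library, and the part of depth in the number of calls was not tested. For each change below, the cause was not tested.

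In the first and the second interval in turn, genes called numbered 25 and 78 with no filter on low counts, 495 and 671 with DESeq2 (4 members in each), 7 and 12 with limma on log2(FPKM + 1), 485 and 728 with replicates 2 and 3 only (3 and 5 members), 1 and 0 with only the 6 libraries compared, and 1 and 0 with 5.5DDC replicates 2 and 3 summed, an alternative chosen after seeing the data. In the second interval, 55 were called on library totals and 0 with limma on log2(FPKM + 0.1). The span, with 2763 genes called, gave 4586 with replicates 2 and 3 only.

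The replicate block gave 212 genes and 2 members over the first interval and 195 genes and 3 members over the second. Over the span, which was not taken as paired, it called 3418 genes (23.2%) and 7 members, with adjusted p of 0.00145 for Sox9, 0.0128 for Fabp7, 0.00458 for Tnc, 0.0682 for Nfix and 0.108 for Sox8. A block for replicate 1 gave 484 genes and 5 members, then 634 genes and 4 members, and 4382 genes and 8 members over the span. Tnc over the first interval was −0.02 with the replicate block (−0.02182) and −0.04 (−0.0392) with the block for replicate 1, and Nfic over the span was 0.03 (0.02743) and 0.02 (0.01642).

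Of the related lists, where 13 genes were called, 20 were called with DESeq2 and 20 with a block for replicate 1, and between 7 (without 4.5DDC replicate 2 or 6.5DDC replicate 2) and 17 with 1 library left out. Leaving out 1 library at a time, genes called lay between 1 (without 4.5DDC replicate 3 or 5.5DDC replicate 3) and 28 (without 6.5DDC replicate 1) over the first interval. They lay between 0 (without replicate 2 or 3 of 5.5DDC or of 6.5DDC) and 196 (without 6.5DDC replicate 1) over the second. Over the span they lay between 1125 (without 6.5DDC replicate 2) and 3132.

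The log2 fold change of Nfic over the span was 0.00816 with RLE scaling, 0.02387 with no filter, 0.02962 with a filter of 1 CPM, 0.008399 with DESeq2, 0.03143 with limma voom, 0.1159 and 0.2083 with limma on FPKM (pseudocounts 1 and 0.1), 0.02832 with 6 libraries, 0.3175 with replicates 2 and 3 only, and between −0.2692 and 0.1897 with 1 library left out. Over the first interval Sox8 was −0.1453 with 5.5DDC replicates 2 and 3 summed and between −0.3299 and 0.4388 with 1 library left out. Tnc was −0.05206 with limma voom, −0.1391 with the pair summed and between −0.2246 and 0.41 with 1 library left out.

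The difference between the intervals for Slc1a3 was −0.005727 with no filter, −0.00337 with a filter of 1 CPM, −0.04934 on library totals, −0.03427 with limma voom, −0.2918 and −0.3169 with limma on FPKM (pseudocounts 1 and 0.1), and −0.1612 with the pair summed. For Aldh1l1 it was 0.5448 and 0.5176 with limma on FPKM, for Nfia 0.1623 with replicates 2 and 3 only, and for Nfib −0.02195 on library totals and −0.03244 with replicates 2 and 3 only. With 1 library left out it lay between −0.3926 and 0.3976 for Nfib, −0.2712 and 0.8877 for Nfix, −0.99 and 0.06356 for Sox9, −0.2525 and 1.052 for Sox8, −0.1873 and 0.4227 for Slc1a3, −0.4487 and 0.6227 for Fabp7, and −0.7691 and 0.1359 for Aldh1l1.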
